A study of Mus musculus with 768 samples.

Results

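The genes described here are 9 carriers and transporters of lipid, which were Apoe, Apod, Abca8a, Abca8b, Abca1, Abcg1, Lrp1, Vldlr and Lpl. They were taken by name from a table of 25700 genes after the Ensembl identifiers had been matched to symbols, and all 9 were found. The levels of these genes in single Schwann cells (SCs) were compared between cells that resembled myelinating SCs and cells that resembled non-myelinating, Remak SCs, separately in each of 2 plates. The question was which lipid carriers and transporters mark each kind of cell.

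A myelinating SC wraps a single axon in many layers of a membrane that is rich in cholesterol and sphingolipids, whereas a Remak SC holds several thin axons without making myelin. Lipid travels between cells in particles that carry apolipoproteins. Apoe is the main apolipoprotein that nervous tissue makes and binds receptors of the LDL receptor family, and Apod is a lipocalin, a small carrier of hydrophobic molecules that is known to be abundant in peripheral nerve. ATP-binding cassette (ABC) transporters of the A and G families move cholesterol and phospholipid out of cells, with Abca1 and Abcg1 the best known, and Lrp1 and Vldlr are receptors that take up apolipoprotein E-containing particles. Lipoprotein lipase (Lpl) releases fatty acids from triglycerides in such particles.

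The cells came from sciatic nerves of P0Cre-/+ : ReYFP Tg/+ : βAct-DsRed Tg/+ mice on the C57bl/6J background at postnatal day 60 (P60), with both sexes used. The P0Cre transgene switches on the eYFP reporter in the SC lineage, and DsRed is carried by all cells. The labels give a single group with 2 biological replicates, which are the plates, and 384 cells on each. Single eYFP-positive cells were sequenced with Smart-Seq2, a full-length method without molecular identifiers, so that values are reads and not molecules. All cells therefore share genotype, age and gate, and the only comparison is between kinds of cell within a plate. Pooled animals stand behind each plate, so the spread between plates is not a spread between single mice.

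The table held 283685199 reads, 74280540 from plate 1 and 209404659 from plate 2. With a minimum of 1500 detected genes, 340 and 334 cells were kept, with medians of 158689 and 452484 reads but of 3442 and 2295 genes. The cells fell into 7 clusters, which were named from 20 markers. All 9 lipid genes, together with 115 other genes of lipid handling, were held out when the clusters were built. Myelinating SC-like (mSC-like) cells numbered 147 in plate 1 and 75 in plate 2, non-myelinating, Remak SC-like (nm(R)SC-like) cells numbered 177 and 243, and 16 cells of each plate fell into a cluster led by cell-cycle genes that was given no name. The summed 11 mSC-like markers stood at 74210 and 70880 CPM (reads of a gene scaled to a common total of reads in the summed cells) in mSC-like cells and at 6874 and 7511 CPM in the nm(R)SC-like class, while the 9 nm(R)SC-like markers stood at 113 and 214 CPM against 3541 and 2736 CPM.

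The windows before the starts of 4 of the genes are shown because the first 3 that follow were called higher in nm(R)SC-like cells and the last was called higher in mSC-like cells. Each holds the 250 bases before the start in the RefSeq annotation of GRCm38.p6, read 5′ to 3′ on the minus strand on which all 4 genes lie, and capitals mark matches to the motifs searched.
Apoe, chr7:19699189-19699438: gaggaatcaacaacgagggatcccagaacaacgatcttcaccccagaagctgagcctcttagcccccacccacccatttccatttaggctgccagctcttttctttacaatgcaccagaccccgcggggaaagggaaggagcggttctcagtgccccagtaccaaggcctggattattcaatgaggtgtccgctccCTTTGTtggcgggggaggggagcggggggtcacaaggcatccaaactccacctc
Abca8a, chr11:110095938-110096187: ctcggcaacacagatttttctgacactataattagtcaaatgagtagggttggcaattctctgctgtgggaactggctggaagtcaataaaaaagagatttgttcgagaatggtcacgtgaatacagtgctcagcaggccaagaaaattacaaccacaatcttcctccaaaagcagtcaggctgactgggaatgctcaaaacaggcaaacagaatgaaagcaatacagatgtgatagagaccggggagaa
Abca8b, chr11:109995846-109996095: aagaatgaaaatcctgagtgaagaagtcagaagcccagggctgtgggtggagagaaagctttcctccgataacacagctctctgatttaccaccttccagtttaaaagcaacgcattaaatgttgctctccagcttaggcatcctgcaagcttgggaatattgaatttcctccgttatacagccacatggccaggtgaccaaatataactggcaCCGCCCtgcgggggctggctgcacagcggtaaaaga
Apod, chr16:31314809-31315058: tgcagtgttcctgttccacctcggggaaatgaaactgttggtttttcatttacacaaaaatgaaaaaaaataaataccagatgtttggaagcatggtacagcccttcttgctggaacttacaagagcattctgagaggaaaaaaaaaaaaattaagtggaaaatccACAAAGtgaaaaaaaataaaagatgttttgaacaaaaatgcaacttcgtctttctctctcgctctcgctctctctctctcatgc
The motifs were the TATA box TATAAA, the CCAAT box CCAAT, the GC box GGGCGG, the nuclear receptor half-site AGGTCA, the pair of half-sites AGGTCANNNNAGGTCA and the SOX motif ACAAAG, each on both strands. Matches of the single half-site include those of the pair. The SOX motif was found at -54 from the start of Apoe, on the reverse strand, and at -84 from that of Apod, and 16.5% of 32851 such windows held it. Only the Abca8b window among the 4 held a GC box, at -36, which 32.7% of windows held. None of the 4 held a TATA box (12.4% of windows), a CCAAT box (33.8%), a half-site (14% of windows) or the pair (0.0152%). The Abca8a and Abca8b windows matched in 62.1% of 211 aligned bases, and those of Apoe and Apod in 55.6% of 205 aligned bases. A match of letters is a description of the sequence and not of factor binding. Apoe has 3 starts in that annotation, and the one shown lies nearest the 5′ end of the gene. The windows of Abca1, Lrp1 and Vldlr are not printed, and none was given for Abcg1 and Lpl.

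Apoe, Abca8a and Abca8b were higher in nm(R)SC-like cells and Apod was higher in mSC-like cells. Reads were summed over the cells of each class and plate and tested with edgeR's quasi-likelihood test with the plate as a block. The test draws on the variation of all genes. Each SE of a log2 ratio below is the size of the ratio divided by the square root of the test's F statistic. It is thus an SE of the model and not the spread between the 2 plates. Of 13271 genes tested, 3.03% were called at a Benjamini-Hochberg adjusted p under 0.05. Among the lipid genes 8 could be tested and 4 were called, 1 of them higher in mSC-like cells, where 1.67% of all genes were called, and 3 higher in the nm(R)SC-like class, where 1.36% were. The median log2 ratio of mSC-like over nm(R)SC-like cells was -0.84 over the 8 genes and -0.13 over all genes tested. Abca1, Abcg1, Lrp1 and Vldlr were tested and not called, and Lpl had no reads. In the plot of levels, the classes are farthest apart for Apoe and Abcg1 and overlap for Lrp1 and Vldlr.

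**Figure D1:**
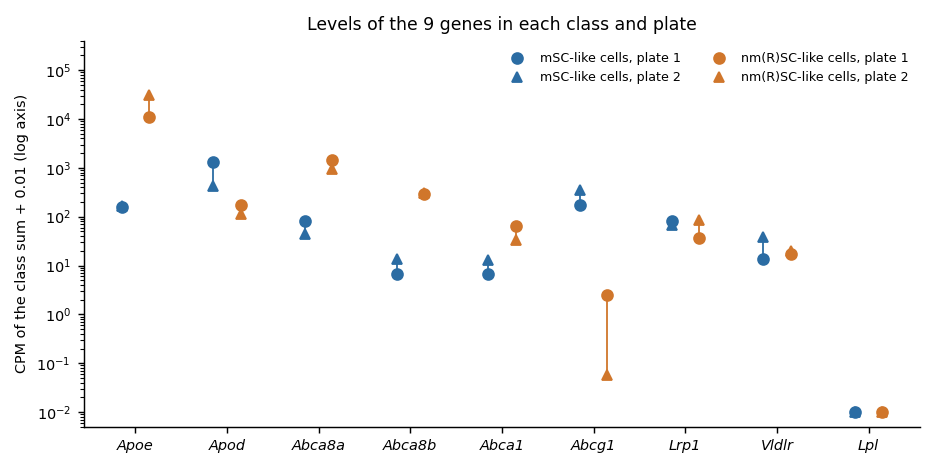
CPM (log axis, 0.01 added) of the 9 genes in the summed mSC-like (blue) and nm(R)SC-like (orange) cells of plate 1 (circles) and plate 2 (triangles), with a line joining the plates. Apoe, Abca8a and Abca8b lie higher in both nm(R)SC-like sums, Apod and Abcg1 lie higher in both mSC-like sums, and Lpl is at 0 in all 4.

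Apoe (chromosome 7, 19696109 to 19699188, minus strand, GRCm38) took 1.82% of all reads in the table. Its level was 157 CPM in the mSC-like and 10800 CPM in the nm(R)SC-like cells from plate 1, and 165 CPM and 31450 CPM in plate 2. The ratio of nm(R)SC-like to mSC-like cells was 68.9 and 190 in the 2 plates, and the groups did not overlap. The log2 ratio of mSC-like over nm(R)SC-like cells was -6.68 ± 0.59 (SE, n = 2 plates, edgeR adjusted p = 0.00481). Per kilobase of exon, Apoe had the highest level of the 9 genes in nm(R)SC-like cells, at 5051 and 14710 CPM per kb.

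Every nm(R)SC-like cell had at least 1 read of Apoe, and among mSC-like cells 145 of 147 in plate 1 and 75 of 75 in plate 2 did. In nm(R)SC-like cells the lowest, median and highest cell had 30.3, 5469 and 37070 CPM in plate 1 and 13.9, 29850 and 88670 CPM in plate 2. In mSC-like cells they had 0, 87.9 and 6351 CPM in plate 1 and 1.97, 20.8 and 2819 CPM in plate 2. The ranges of single cells overlapped while the medians did not come near each other. To compare shares at equal depth, each cell was thinned to 100000 reads, which left out the cells with fewer reads (in mSC-like cells 48 of 147 from plate 1 and 1 of 75 from plate 2, and 65 of 177 and 7 of 243 in the other class), and a gene was counted as read with 5 or more of them, with 95% exact Clopper-Pearson intervals that cover counting error only. By this measure 96.4% (91.1 to 99.0%) of 112 nm(R)SC-like cells from plate 1 and 97.9% (95.1 to 99.3%) of 236 of plate 2 had Apoe. In mSC-like cells the share was 63.6% (53.4 to 73.1%) of 99 and 31.1% (20.8 to 42.9%) of 74.

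The low Apoe signal in the mSC-like cells of plate 1 fell when the reads expected from sharing between cells were subtracted. Cells of plate 1 carry 2 index sequences, and for 7 genes read almost wholly from a single cell, a read of the gene was found in 42.8% of the cells with an index in common and in 0.994% of those with none in common. Subtraction of the reads expected from such sharing left 2979 of the 4872 Apoe reads of the 147 mSC-like cells, and 33 of them in place of 132 kept 5 or more reads. At least 1 read was then left in 50 of 147 mSC-like cells and in 146 of 177 cells of the other class. The nm(R)SC-like cells kept 99.2% of their Apoe reads. The mSC-like level was 96.7 CPM after the subtraction, and the nm(R)SC-like level was 112-fold higher. With the subtraction the log2 ratio was -7.03 ± 0.51 (SE, n = 2 plates, edgeR adjusted p = 0.00218). The correction could be made for plate 1 only. Its rate came from those 7 genes, and the sharing of Apoe reads itself was not tested. The subtracted reads are called exchanged reads below, and how reads came to be shared was not tested.

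Apoe also varied among nm(R)SC-like cells. It stood at 14490 and 31650 CPM in the cluster with Scn7a, a sodium channel gene of Remak SCs, among its leading genes, at 15870 and 39720 CPM in the cluster with Aldh1a1, a retinaldehyde dehydrogenase, among its leading genes, and at 3106 and 8821 CPM in the cluster led by Ednrb and ribosomal protein genes. In the first 2 of these clusters Apoe itself was the leading gene, although it had been held out when they were built. The Ednrb cluster thus had the lowest Apoe level of the 4 nm(R)SC-like clusters in both plates. It held 33.9% of the nm(R)SC-like cells from plate 1 and 16.9% of those of plate 2, and its part in the difference between the plates was not tested. Among mSC-like cells, Apoe was at 304 and 211 CPM in the cluster led by Emid1 and at 76.8 and 37.5 CPM in the cluster led by Mfap5.

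Apod (chromosome 16, 31296192 to 31314808, minus strand) went the other way. Its level was 1294 CPM in the mSC-like and 175 CPM in the nm(R)SC-like cells from plate 1, and 422 CPM and 116 CPM in plate 2. The mSC-like level was 7.39-fold higher in plate 1 and 3.64-fold higher in plate 2, and both mSC-like sums lay above both nm(R)SC-like sums. The log2 ratio was 2.53 ± 0.42 (SE, n = 2 plates, edgeR adjusted p = 0.033). The call was lost without the plate block, with an edgeR adjusted p of 0.0751. In the mSC-like cells of plate 2 a single cell held 55.5% of the Apod reads, and when the cell with the most reads of each member was set to no reads of it in each class and plate, the log2 ratio was 2.47 ± 0.61 with an edgeR adjusted p of 0.12. Without those cells the log2 ratio within plates was 3.40 and 1.27, from CPM + 1. These values were added after the data were seen.

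Within the mSC-like cells, Apod lay almost wholly in the cluster led by Mfap5, which encodes a microfibril-associated protein. That cluster held 99.4% of the mSC-like Apod reads of plate 1 and 99.6% of those of plate 2, while it held 64.8% and 26.6% of all mSC-like reads. Its Apod level was 1985 and 1582 CPM, against 22.9 and 2.37 CPM in the mSC-like cluster led by Emid1. Apod took no part in building these clusters. A division of the mSC-like cells by the level of Mfap5 alone placed 129 of 147 and 71 of 75 cells on the same side as the clusters did, so it is no separate evidence. Those with 50 CPM or more of Mfap5 had 2114 and 1662 CPM of Apod, and the rest had 31.2 and 2.33 CPM. The summed endothelial and pericyte markers moved with Apod in these cells. In each mSC-like sum only 1 marker of each of these lists reached 10 CPM, so the summed values rest on few genes. In the mSC-like cells with 50 CPM or more of Apod, the summed 8 endothelial markers were at 63.2 and 54.8 CPM, against 3.44 and 0.295 CPM in the rest, and the 6 markers of pericytes and vascular smooth muscle were at 58.6 and 61.4 CPM against 48.6 and 8.17 CPM. Their part in the Apod level was not tested. The plates allow no exact test of a difference between clusters, since 2 pairs cannot give a two-sided p below 0.5.

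The plates differed in how many mSC-like cells belonged to the Mfap5 cluster. They were 88 of 147 in plate 1 (59.9%, 51.5 to 67.9%) and 19 of 75 in plate 2 (25.3%, 16 to 36.7%). The thinned share of mSC-like cells with Apod moved in the same way, at 57.6% (47.2 to 67.5%) and 20.3% (11.8 to 31.2%). Among nm(R)SC-like cells it was 7.14% (3.13 to 13.6%) and 10.2% (6.62 to 14.8%), so that the intervals of the 2 classes were apart in plate 1 and overlapped in plate 2. Over all cells, with no thinning, 50 CPM or more of Apod was found in 55.1% and 20% of mSC-like cells, against 20.9% and 10.3% in the other class. In a cell of low depth a single read can reach 50 CPM, so these shares are not at equal depth. In plate 1, subtraction of exchanged reads left 13 in place of 21 nm(R)SC-like cells with 5 or more unthinned Apod reads. The part of the makeup of the mSC-like cells in the plates' unequal Apod levels was not tested.

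**Figure D2:**
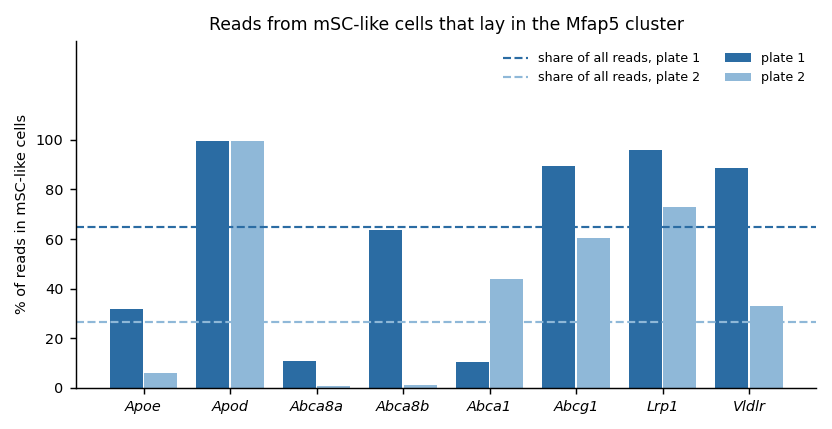
Share (%) of the mSC-like reads of each gene that came from the Mfap5 cluster, in plate 1 (dark bars) and plate 2 (light bars), with the cluster's share of all mSC-like reads as dashed lines at 64.8% and 26.6%. The Apod bars stand at 99.4% and 99.6%, Abcg1 and Lrp1 stand above their own plate's line in both plates, and Apoe and Abca8a stand below it.

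Apod in nm(R)SC-like cells came from few cells. In plate 1 a single cell held 34.6% of the reads there, and in plate 2 the 4 cells with most reads held at least 50% of them. The highest levels in single cells were 11340 and 5371 CPM. The Ednrb cluster held 80.0% and 30.2% of these reads. In plate 1 the 2 cells with most reads, at 11340 and 8200 CPM, belonged to this cluster and held at least 50% of the reads of the class. The median cell of the cluster had 7.29 CPM there. In plate 2 a single cell of it, at 4373 CPM, held 30.2% of the reads of the class, so the cluster's share there rested on that cell. Reads of Apod were found in 71.7% and 4.88% of the Ednrb cluster's cells. The shares were 65.6% and 8.7% in the Scn7a cluster and 79.55% and 25% in the Aldh1a1 cluster. In plate 1, subtraction of exchanged reads left 53 in place of 128 of 177 nm(R)SC-like cells with any read of Apod. In the nm(R)SC-like cells with 50 CPM or more of Apod, the summed 10 markers of fibroblast-like cells were at 2836 and 800 CPM, against 2403 and 990 CPM in the rest, so their level moved with Apod in opposite directions in the plates. The summed mSC-like markers were at 8067 and 6734 CPM in those cells and at 6779 and 7618 CPM in the rest. The summed 6 markers of pericytes and vascular smooth muscle were at 46.5 and 91.2 CPM against 0.815 and 2.8 CPM. Of these 6, 0 reached 10 CPM in the nm(R)SC-like sum of plate 1 and 1 did in that of plate 2. The part of these markers in the Apod of these cells was not tested.

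Abca8a (chromosome 11, 110025634 to 110095978, minus strand) and Abca8b (109932190 to 109995845, the same strand) are neighbouring genes of ABC transporters of the A family for which export of cholesterol and other lipids has been described. Abca8a was at 79.8 CPM in the mSC-like and 1479 CPM in the nm(R)SC-like cells from plate 1, and at 43.7 and 956 CPM in plate 2. Abca8b was at 6.82 and 295 CPM in plate 1 and at 13.3 and 308 CPM in plate 2. Both were higher in nm(R)SC-like cells in both plates without overlap, 18.6-fold and 21.9-fold for Abca8a and 43.2-fold and 23.1-fold for Abca8b. The log2 ratio of mSC-like over nm(R)SC-like cells was -4.17 ± 0.38 for Abca8a (SE, n = 2 plates, edgeR adjusted p = 0.00491). For Abca8b it was -4.82 ± 0.47 (SE, n = 2 plates, edgeR adjusted p = 0.00617). A single cell held 55.7% of the Abca8b reads of the mSC-like cells of plate 2. Without the cell with most reads in each class, Abca8b stood there at 6.03 CPM in the mSC-like sum and at 274 CPM in the other, a 45.4-fold difference.

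The transcripts of these neighbours had few stretches in common. Of the 6394 different stretches of 50 bases in the GENCODE transcripts of Abca8a, 105 (1.64%) also occurred in those of Abca8b. The counts of the genes differed in 304 of 340 kept cells of plate 1 and in 295 of 334 of plate 2. Unequal counts do not show how reads from the shared stretches were assigned. None of the exons of the 9 genes overlapped another gene of the table.

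Not every nm(R)SC-like cell had both transporters. After thinning, 75% (65.9 to 82.7%) of nm(R)SC-like cells from plate 1 and 68.2% (61.9 to 74.1%) of those of plate 2 had Abca8a, and 52.7% (43.0 to 62.2%) and 47.0% (40.5 to 53.6%) had Abca8b. In mSC-like cells 12.1% (6.42 to 20.2%) and 10.8% (4.78 to 20.2%) had Abca8a, and 2.02% (0.246 to 7.11%) and 5.41% (1.49 to 13.3%) had Abca8b. In plate 1, subtraction of exchanged reads cut the mSC-like cells with 5 or more unthinned reads from 38 to 20 for Abca8a. For Abca8b it cut them from 8 to 5. Both genes were read in 53 of 112 nm(R)SC-like cells from plate 1 and in 80 of 236 of plate 2, while 22 and 44 had neither. Among nm(R)SC-like cells with Abca8a, 63.1% also had Abca8b in plate 1, against 21.4% of those without, whereas in plate 2 the shares were 49.7% and 41.3%. The tie between the neighbours in single cells was thus plain in plate 1 and small in plate 2.

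In nm(R)SC-like cells the lowest, median and highest Abca8a cell had 0, 773 and 10610 CPM in plate 1 and 0, 551 and 8406 CPM in plate 2. Of the nm(R)SC-like clusters, the Ednrb cluster had the lowest Abca8a level, at 539 and 482 CPM, where the Scn7a cluster had 1838 and 1162 CPM and the Aldh1a1 cluster had 2107 and 873 CPM. For Abca8b the Ednrb cluster had 66.0 and 77.0 CPM, the Scn7a cluster 518.3 and 437 CPM and the Aldh1a1 cluster 328 and 237 CPM. Apoe and both transporters were therefore all lower in the Ednrb cluster than in those 2 clusters in both plates. No test was made of this difference.

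**Figure D3:**
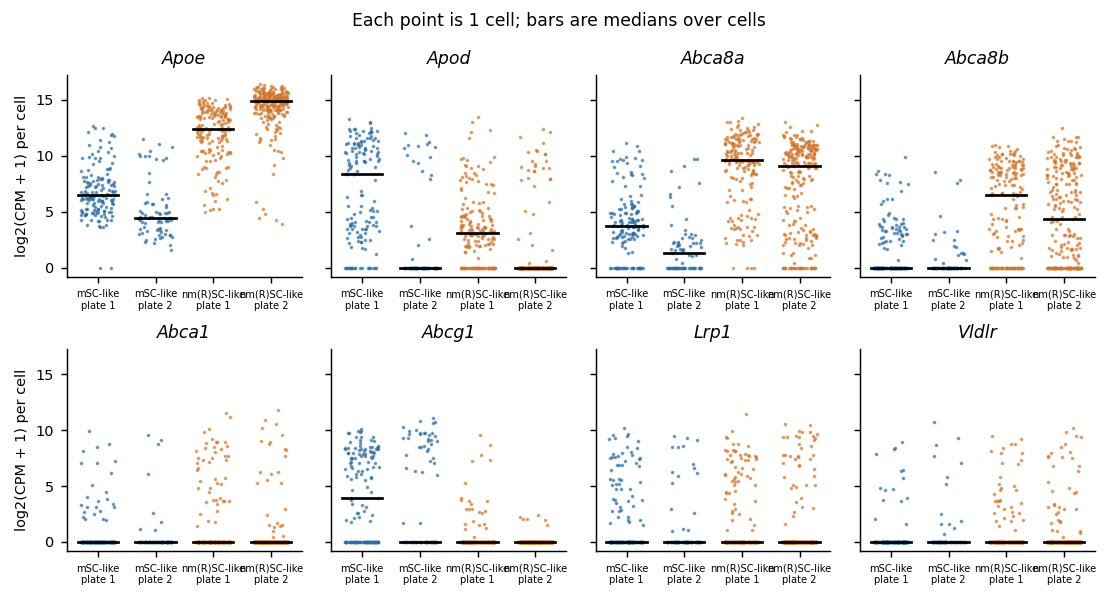
Level of 8 genes in each cell, as log2(CPM + 1), for mSC-like (blue) and nm(R)SC-like (orange) cells of each plate, with a bar at the median over cells. Most nm(R)SC-like cells have high Apoe, Abca8a is split between high and low cells, and Apod in mSC-like cells forms a high group in both plates that is larger in plate 1.

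Abca1 (chromosome 4, 53030787 to 53159895, minus strand), which passes cholesterol and phospholipid to lipid-poor apolipoproteins, had low levels in both classes. It was at 6.82 and 65.3 CPM in mSC-like and nm(R)SC-like sums from plate 1 and at 13.2 and 33.2 CPM in plate 2. The nm(R)SC-like sums were the higher in both plates, but the log2 ratio of -2.13 ± 0.92 did not pass the test (SE, n = 2 plates, edgeR adjusted p = 0.416). After thinning, Abca1 was read in 2.02% (0.246 to 7.11%) and 5.41% (1.49 to 13.3%) of mSC-like cells and in 13.4% (7.69 to 21.1%) and 5.93% (3.28 to 9.75%) of nm(R)SC-like cells, with intervals apart in plate 1 and overlapping in plate 2. Its reads came from few cells, and 4 cells in plate 1 and 3 in plate 2 held at least 50% of those in the nm(R)SC-like class. Unlike Apoe, it stood higher in the Ednrb cluster, at 134 and 80.1 CPM, than in the Scn7a and Aldh1a1 clusters. Those were at 28.4 and 19.7 CPM and at 6.79 and 33.7 CPM. In plate 2 the Ednrb cluster held 33.6% of the nm(R)SC-like Abca1 reads, and a single cell of it, at 3532 CPM, held 28.4%. The order of the clusters in plate 2 thus rested on that cell. Abca1 is also known from macrophages, whose 10 summed markers were at 30.5 and 0.843 CPM in the nm(R)SC-like cells with 50 CPM or more of Abca1 and at 16.1 and 27.4 CPM in the rest.

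Abcg1 (chromosome 17, 31057675 to 31117988, plus strand), which exports cholesterol to lipoprotein particles that already hold lipid, had nearly all its reads in mSC-like cells. It was at 175 CPM in the mSC-like and 2.52 CPM in the nm(R)SC-like cells from plate 1, and at 354 and 0.0468 CPM in plate 2, where 243 nm(R)SC-like cells had 7 reads in all. The mSC-like level was 69.5-fold higher in plate 1 and 7554-fold higher in plate 2, the second resting on those 7 reads. The log2 ratio was 9.28 ± 1.90 and missed the threshold (SE, n = 2 plates, edgeR adjusted p = 0.0661). It passed in 10 of 12 alternative fits, in which the adjusted p ranged from 3.48e-23 to 0.0708.

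The shares of cells with Abcg1 were alike in the plates. After thinning, 47.5% (37.3 to 57.8%) of 99 and 44.6% (33.0 to 56.6%) of 74 mSC-like cells had it. None of 112 nm(R)SC-like cells from plate 1 did, which allows a share of up to 2.68% at 3 cells (exact upper limit 3.24%), and none of 236 of plate 2, which allows up to 1.27% (exact upper limit 1.55%). With a minimum of 1 read in place of 5, 6 of the 112 (5.36%) and none of the 236 had it. In plate 1 a single nm(R)SC-like cell held 71.1% of the 97 reads of that class without thinning. The 5 nm(R)SC-like cells from plate 1 with 50 CPM or more of Abcg1 had 62840 CPM of the summed mSC-like markers. The other 172 had 6702 CPM. The first value is from reads pooled over the 5 cells and does not describe each of them. Among them, the cell with 743 CPM of Abcg1 had 96.9 CPM of Apoe, while the others had 2350 to 9552 CPM. All 5 were kept in the class to which their clusters assigned them.

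Abcg1 was read in both mSC-like clusters but stood higher in the Mfap5 cluster, at 242 and 803 CPM against 52.7 and 191 CPM in the Emid1 cluster. Apod and Abcg1 were often read in the same mSC-like cells. In plate 1, 68.4% of the mSC-like cells with Apod had Abcg1, against 19% of those without Apod, and 39 of 99 had both. In plate 2 the shares were 93.3% and 32.2%, and 14 of 74 had both. In plate 1, 8 mSC-like cells had Abcg1 without Apod and 18 had Apod without Abcg1, whereas in plate 2 these were 19 and 1.

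**Figure D4:**
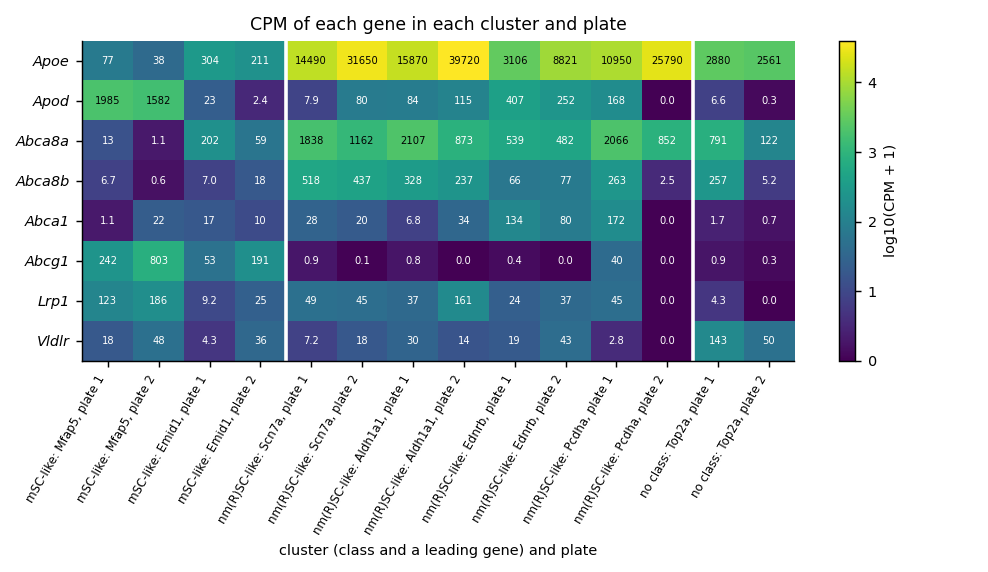
Level of 8 genes in the 7 clusters of each plate, with CPM printed in each field and the colour giving log10(CPM + 1). Clusters are named by class and a leading gene, and white lines separate mSC-like, nm(R)SC-like and unnamed cells. Apod is at 1985 and 1582 CPM in the Mfap5 cluster, Abcg1 is highest in the mSC-like clusters, and Apoe and Abca8a are lower in the Ednrb cluster than in the Scn7a cluster.

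Neither receptor was called between the classes. Lrp1 (chromosome 10, 127538161 to 127621148, minus strand), a large endocytic receptor, was at 83.1 and 36.5 CPM in mSC-like and nm(R)SC-like sums from plate 1 and at 67.7 and 87.0 CPM in plate 2. It was thus the higher in mSC-like cells in plate 1 and in nm(R)SC-like cells in plate 2, and the log2 ratio was 0.57 ± 0.58 (SE, n = 2 plates, edgeR adjusted p = 0.82). A single cell held 47.8% of the Lrp1 reads of the nm(R)SC-like cells of plate 2. Without the cell with most reads in each class and plate, the log2 ratio within plates, from CPM + 1, was 1.10 and 0.14, so the order in plate 2 rested on that cell. Its thinned shares were 19.2% (12 to 28.3%) and 14.9% (7.66 to 25%) of mSC-like cells and 19.6% (12.7 to 28.2%) and 11.4% (7.68 to 16.2%) of nm(R)SC-like cells. Among mSC-like cells the sums of Lrp1, like those of Apod, were higher in the Mfap5 cluster. They stood at 123 and 186 CPM there and at 9.23 and 24.9 CPM in the Emid1 cluster. The Mfap5 cluster held 96.1% and 73.0% of the mSC-like Lrp1 reads. Its median cell had 0 CPM in both plates, and 4 and 2 mSC-like cells held at least 50% of the reads. In plate 2 a single cell held 28.1% of the mSC-like Lrp1 reads and 55.5% of the mSC-like Apod reads. When the mSC-like cells were divided by 50 CPM of Mfap5, those above had 133 and 195 CPM and those below had 6.71 and 24.5 CPM.

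Vldlr (chromosome 19, 27216484 to 27254231, plus strand), which also binds particles with apolipoprotein E, was at 13.3 and 17.6 CPM in mSC-like and nm(R)SC-like sums from plate 1 and at 38.9 and 19.9 CPM in plate 2. The plates again had opposite orders, and the log2 ratio was 0.44 ± 0.91 (SE, n = 2 plates, edgeR adjusted p = 0.944). It was below 0 without integration of the plates, at -0.06. After thinning, 6.06% (2.26 to 12.7%) and 8.11% (3.03 to 16.8%) of mSC-like cells and 5.36% (1.99 to 11.3%) and 6.78% (3.92 to 10.8%) of nm(R)SC-like cells had Vldlr. These intervals overlapped in both plates, which does not show that the classes have the same level.

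Lpl (chromosome 8, 68880491 to 68907448, plus strand), the lipase of the group, had 0 reads in all 768 cells. A count of 0 allows up to 3 reads in each sum, or 0.0966 and 0.0781 CPM in mSC-like and nm(R)SC-like sums from plate 1 and 0.0538 and 0.0201 CPM in plate 2. No ratio was computed for it.

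**Figure D5:**
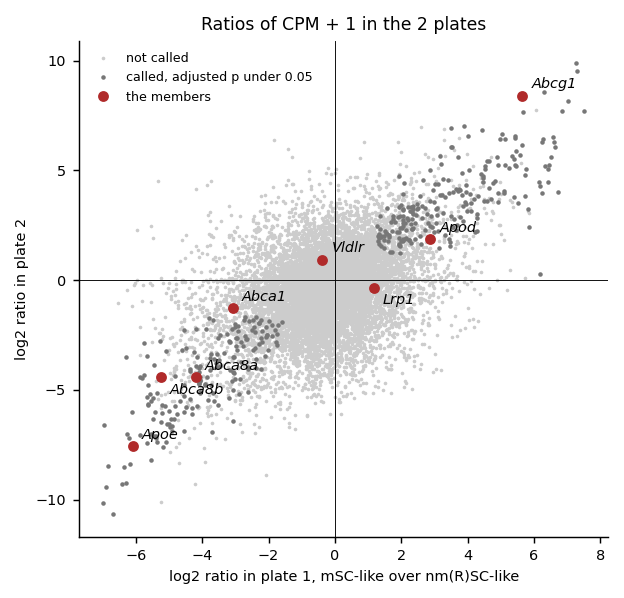
Log2 ratio of mSC-like over nm(R)SC-like cells, from CPM + 1, in plate 1 (horizontal) and plate 2 (vertical) for each gene tested, with genes not called in light grey, called genes in dark grey and the members in red. Apoe, Abca8a and Abca8b lie among the called genes below 0 in both plates, Apod and Abcg1 lie above 0 in both, and Lrp1 and Vldlr have opposite signs in the plates.

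The order of the levels per kilobase of exon differed between the classes. In mSC-like cells the mean over the plates was highest for Apod, at 333 ± 239 CPM per kb (SD, n = 2), followed by Apoe at 75.3 ± 2.74, Abcg1 at 36.2 ± 17.3 and Abca8a at 9.84 ± 4.07. The plates' ranges of Apod and Apoe did not overlap. Those of Apoe and Abcg1 did not either, but after subtraction of exchanged reads Apoe stood at 45.2 CPM per kb in plate 1, within the range of Abcg1. In the nm(R)SC-like class Apoe was highest at 9881 ± 6830, followed by Abca8a at 194 ± 59.0, Apod at 56.5 ± 16.2 and Abca8b at 40.6 ± 1.28. There, too, the plates' ranges of these neighbours did not overlap. Without the cell with most reads in each class and plate, Apod stood there at 115 and 81.7 CPM and Abca8b at 279 and 274 CPM. Scaled to exon length, the ranges of these 2 genes then overlapped. Lower in the order, Lrp1, Vldlr, Abca8b and Abca1 in mSC-like cells had ranges that overlapped from each to the next, as did Abca1 and Lrp1 in the nm(R)SC-like class.

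Of the other genes of the pathway, few were called. Among 17 other apolipoproteins, 3 could be tested and Clu, which encodes clusterin (apolipoprotein J), was called, with its higher level in the nm(R)SC-like class. Clu stood at 1.51 and 300 CPM in mSC-like and nm(R)SC-like sums from plate 1 and at 0.162 and 784 CPM in plate 2, and the log2 ratio was -9.55 ± 1.35 (SE, n = 2 plates, edgeR adjusted p = 0.0199). Among 18 genes of fatty acid uptake and binding, 11 could be tested and 2 were called, both higher in mSC-like cells. Pmp2, a fatty acid-binding protein of peripheral myelin, was at 589 and 18.9 CPM in plate 1 and at 363 and 6.47 CPM in plate 2 (log2 ratio 5.55 ± 0.46 SE, n = 2 plates, edgeR adjusted p = 0.00443). Its exons share 1224 bases with Gm37389 on the same strand, so its count is uncertain. Mfsd2a, a transporter of lysophospholipids that carry omega-3 fatty acids, was at 316 and 5.18 CPM in plate 1 and at 216 and 0.0669 CPM in plate 2 (log2 ratio 8.67 ± 1.62 SE, n = 2 plates, edgeR adjusted p = 0.049). The Mfsd2a call was lost with no replicate block, with a minimum of 1000 genes per cell and at resolution 0.3.

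No gene of the other lists was called by edgeR with the settings above, but some were with other edgeR settings, at most Insig1, Osbpl1a and Rxrg of sterol handling and Abca2 of the transporters, with thinned cells. Among all genes tested, 12.7% had an unadjusted p under 0.05 and DESeq2 called 13%. Of 14 tested relatives among the lipid ABC transporters, 2 had an unadjusted p under 0.05 and DESeq2 called 3. Of 14 tested lipoprotein receptors and their regulators, 2 had an unadjusted p under 0.05 and DESeq2 called 1. Of 13 tested lipases and plasma lipid enzymes, 3 had an unadjusted p under 0.05 and DESeq2 called 3. Of 24 tested genes of intracellular sterol handling, 4 had an unadjusted p under 0.05 and DESeq2 called 5. The median log2 ratios of these 4 lists were -0.81, -0.55, 0.36 and 0.27, beside -0.13 for all genes tested.

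The genes most like Apoe, Abca8a and Abca8b across cells were sought among 2915 genes read in at least 25% of the kept cells of both plates, by the mean over the plates of Pearson's r of log-transformed counts. Apoe was most like Rarres2 (r of 0.808 and 0.815), Scn7a (0.819 and 0.789) and Lrrc61 (0.782 and 0.791). Abca8a was most like Scn7a (0.731 and 0.469), Sparcl1 (0.734 and 0.405) and Rarres2 (0.649 and 0.424), and Abca8b was most like Scn7a (0.592 and 0.405), Sparcl1 (0.599 and 0.354) and Ncam1 (0.519 and 0.338). Apoe and Abca8a had r of 0.692 and 0.511, Apoe and Abca8b 0.565 and 0.382, and Abca8a and Abca8b 0.586 and 0.255. These values are over the 340 and 334 kept cells of the plates. The cells of a plate share a library preparation and include both classes, so the values describe likeness across classes as well as within them. The other members were read in too few cells of plate 2 for this comparison.

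Markers of other nerve cells were below those of SCs in both classes, and those of fibroblast-like cells were the highest among them. The summed 4 SC markers ranged from 4122 to 28180 CPM over the 4 sums. The summed 10 macrophage markers ranged from 13.4 to 26.4 CPM, with 2 of them at 0 in all cells, and the 8 endothelial markers from 1.42 to 36.9 CPM, also with 2 at 0. The 6 adipocyte markers, of which 4 were at 0 in all cells, ranged from 0.00669 to 3.19 CPM, and the 6 markers of pericytes and vascular smooth muscle from 4.19 to 54.2 CPM. The 5 perineurial markers ranged from 214 to 326 CPM. The 10 fibroblast-like markers were at 1315 and 771 CPM in mSC-like cells. In the nm(R)SC-like class they were at 2435 and 967 CPM, where the SC markers were at 4726 and 4122 CPM. Of the 10, 2 reached 10 CPM in each mSC-like sum, and 4 and 3 did in the nm(R)SC-like sums. As a sum they were thus higher in the class in which Apoe, Abca8a and Abca8b were higher, and their part in these ratios was not tested. Endothelial markers were at 36.9 and 11.7 CPM in mSC-like cells, against 8.56 and 1.42 CPM in the other class, and pericyte and vascular smooth muscle markers were at 54.2 and 19.3 CPM against 4.19 and 13.5 CPM. Both sums were higher in the class in which Apod was higher and Abcg1 had most of its reads. In each mSC-like sum only 1 marker of each of these lists reached 10 CPM. The part of these markers in those values was not tested.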

How the data were processed

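The authors deposited raw read counts per gene and cell, one table for 768 cells. The processing notes of the submitters name STAR 2.6.1c, featureCounts and GRCm38.p5, while the study's methods name another STAR version and a human build for reads with mouse gene identifiers. Strand setting and treatment of reads from several places are not given in the sources used here. Identifiers were matched to GENCODE M21 (25664 of 25700).

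Members and lists were chosen with earlier results of these data known. Clusters were rebuilt in Seurat 5.3.0 under R 4.3.3 (12 dimensions, resolution 0.5), so classes can differ from those of the study. Genes outside the lists were split at random into 2 parts and tested in classes built from the other part, which matched the full classes in 96.9% and 96.3% of 642 cells. The 20 naming markers were left out of tests. Sums were tested with edgeR 4.0.16 (TMM, minimum count 10, plate as block, 1 residual degree of freedom). The test was checked on counts simulated with the same dispersion for every gene. That check does not cover genes with most of their reads in few cells. Both classes of a plate come from the same pooled mice, which is why plate was the block. Named were all members, called list genes of 10 CPM or more (at most 4 per list and direction) and the 3 genes most like each member read in 25% of cells. Depth was 1025 to 4076083 reads per cell. No doublet caller was run on singly sorted cells. Alternatives were RLE factors, DESeq2 1.42.0, no count filter, no block, other cell filters (1000 and 2500 genes), no integration, resolution 0.3, classes from all genes, thinning and subtraction of exchanged reads.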

Additional observations from a re-analysis of the deposited data

Results flagged for a closer look

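Cells given no class name took no part in the comparison, and 4 members had reads there above the limit that a count of 0 allows in both plates (0.641 and 0.975 CPM). These 16 cells of each plate were led by cell-cycle genes such as Top2a. Apoe stood at 2880 CPM there in plate 1 and at 2561 CPM in plate 2, between the mSC-like and nm(R)SC-like levels of both plates. Abca8a stood at 791 and 122 CPM, also between the classes in both plates. Abca8b stood at 257 and 5.2 CPM, which was between the classes in plate 1 and below both in plate 2. Vldlr stood at 143 and 50.1 CPM, above both classes in both plates, with reads in 25% and 12.5% of these cells and with 82.0% and 99.4% of the reads from a single cell. In plate 2 these cells had a median of 5046.5 reads, and 1 cell held 96.5% of their Abca8a reads, so the plate 2 values rest on few reads and cells.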

How the results depend on the processing

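Apoe, Abca8a and Abca8b kept their direction and their call in all 12 alternative fits. Their log2 ratios ranged from -7.03 to -5.19, from -4.53 to -3.77 and from -5.4 to -4.33. Apod kept its direction in all 12 and its call in 10. The exceptions were the fit with no replicate block (adjusted p = 0.0751) and that without the top cell of each gene (0.12), the latter chosen after seeing the data. The fit with no replicate block called 4 members, Abca8a, Abca8b, Abcg1 and Apoe, where the fit with the block called 4 with Apod in place of Abcg1. Abcg1 was past the threshold in 10 of 12, all but resolution 0.3 (adjusted p = 0.0708) and subtraction of exchanged reads (0.0624). Abca1 and Lrp1 kept direction and were never called. Vldlr reversed to -0.0637 without plate integration and to -0.0284 without the top cell. The cause was not tested. In a single plate, with no test possible since no residual degrees of freedom are left, the ratios without replicate 1 and without replicate 2 were -7.57 and -6.1 for Apoe, 1.85 and 2.88 for Apod, -4.42 and -4.2 for Abca8a, -4.43 and -5.24 for Abca8b, -1.27 and -3.08 for Abca1, 8.4 and 5.65 for Abcg1, -0.36 and 1.17 for Lrp1, and 0.93 and -0.38 for Vldlr.

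Counts over more genes moved more. All genes called numbered 402, and 1729 with DESeq2, 806 with thinned cells, 230 with 2500 genes per cell, 201 without integration and 200 with no replicate block. List genes called numbered 3, and 16 with DESeq2, 7 with thinned cells, and 5 with RLE factors, with no count filter and with classes from all genes. Members whose thinned shares had intervals apart in both plates numbered 4, and 3 or 4 under the other minima, depths and filters. A pseudocount of 5 CPM in place of 1 can change the size of a within-plate ratio but not its sign. With it the log2 ratios of Abcg1 were 4.58 and 6.15 in plates 1 and 2, in place of 5.65 and 8.40. Of 72 alternative shares, 29 moved by more than the spread between plates. After thinning, shares up to 1.27 to 4.05% of a class and plate could not be told from 0.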
